A study of Mus musculus with 14 samples.

Results

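The Hox cluster genes are the homeobox transcription factor genes that lie side by side in the HoxA, HoxB, HoxC and HoxD clusters. Members were the protein-coding genes of the GRCm38 mouse annotation whose symbol is Hox, a cluster letter from a to d and a paralog number. This gave 39 genes of the 21440 coding genes with an annotated start (21900 coding genes were in the table): 11 in HoxA, 10 in HoxB, 9 in HoxC and 9 in HoxD.

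Within a cluster the genes with low paralog numbers lie at the 3′ end and are switched on first and nearest the head of the embryo, and their proteins bind DNA together with the TALE homeodomain cofactors of the Pbx and Meis families. In adult blood stem and progenitor cells the central HoxA and HoxB genes are the ones known to be active, with Hoxa9, Hoxa10 and Hoxb4 known as regulators of self-renewal. H3K4me3 (trimethylated lysine 4 of histone H3) marks the starts of active and poised genes and is placed at Hox clusters by Trithorax-type complexes such as that of Kmt2a, whereas Polycomb complexes keep unused Hox genes silent.

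H3K4me3 was mapped in LSK cells (Lin−Sca1+cKit+, the bone marrow fraction with blood stem and early progenitor cells) by CUT&Tag, in which an antibody brings a transposase to the mark and the released fragments are sequenced. C57BL/6J male mice were put at 3 to 4 weeks of age on a high-fat diet (HFD, 60% of calories from fat) or a low-fat control diet (LFD, 10% of calories from fat) and kept on it for 16 to 20 weeks. Peak lists called with MACS2 on each library by itself were used, 3 from HFD-LSK and 4 from LFD-LSK, each from about 10000 cells; the IgG control libraries were not analysed here. The study's methods and text speak of batches, paired samples and an added cohort, and state that diets were compared within a cohort, but which library belongs to which cohort or batch is not given, nor whether animals were pooled. Values within a cohort could therefore not be given, and p-values measure only the spread between libraries.

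The lists held 9186, 13094 and 11977 peaks in HFD replicates 1 to 3 and 7447, 10572, 10352 and 6921 in LFD replicates 1 to 4. Peaks covered 8.91, 17.5 and 10.3 Mb in the HFD lists and 6.22, 11.3, 9.55 and 4.18 Mb in the LFD lists. List length thus differed within each diet as well as between them, and LFD replicates 1 and 4 were the shortest lists. Read totals per library were not analysed here, but a whole number of fragments at the summit that fits both the fold and the p-value was found for all 69549 peaks. With the p-values shuffled among the peaks, such a number was still found for 10.3, 2.59 and 1.69% of peaks in HFD replicates 1 to 3 and 26.7, 4.41, 6.36 and 14.6% in LFD replicates 1 to 4. The lowest summit that was called held 16, 8 and 4 fragments in the HFD lists and 21, 10, 8 and 9 in the LFD lists, so the depth needed for a call differed between libraries.

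Most marker genes of LSK cells carried peaks. Of 10 LSK marker genes, 9 had a peak within 1 kb of the start in at least 1 list, and Cd34, Kit, Myb and Gata2 had one in all 7; Ly6a, which encodes Sca1, had none in any list. Among genes of mature blood lineages, Cd3e, Itgam and Ly6g had no peak in any list. Of 10 markers of stroma, bone and limb mesenchyme, cells that also use Hox genes, 0, 3 and 1 had a peak in the HFD lists and 0, 1, 1 and 0 in the LFD lists. Twist1, named for this after its values were seen, accounted for most of these, with a peak in 4 lists at a mean percentile of 81.3 of the list (0, the strongest peak; 100, the weakest), while Prrx1, Pdgfra, Lepr and Col1a1 had none. The 4 endothelial genes gave 0, 2 and 0 peaks in the HFD lists and 0, 1, 0 and 0 in the LFD lists, with none at Pecam1 or Cdh5. Stromal and endothelial peaks were thus found mainly in HFD replicate 2, the longest list and the one with the most Hox calls; their part in the Hox results was not tested.

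The H3K4me3 marking of the Hox genes was partial and lay mainly in HoxA. A start counted as called when a peak reached within 1 kb of it. In at least 1 list 14 of the 39 Hox starts were called, against 11706 of the 21440 coding starts (54.6%). No Hox start was called in all 7 lists, against 4778 coding starts (22.3%). HoxA held 7 called members of 11, HoxB 4 of 10, HoxC 1 of 9 and HoxD 2 of 9. By paralog number, 4 of 8 members of groups 1 to 3, 10 of 22 of groups 4 to 10 and none of the 9 in groups 11 to 13 were called. Most of the last groups lie in HoxC and HoxD; within HoxA and HoxB the counts were 3 of 6, 8 of 12 and 0 of 3. With every list shortened to the 6921 strongest peaks, the length of the shortest list, 7 Hox starts were called in any list in place of 14, beside 10187 coding starts (47.5%) in place of 11706.

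**Figure D1:**
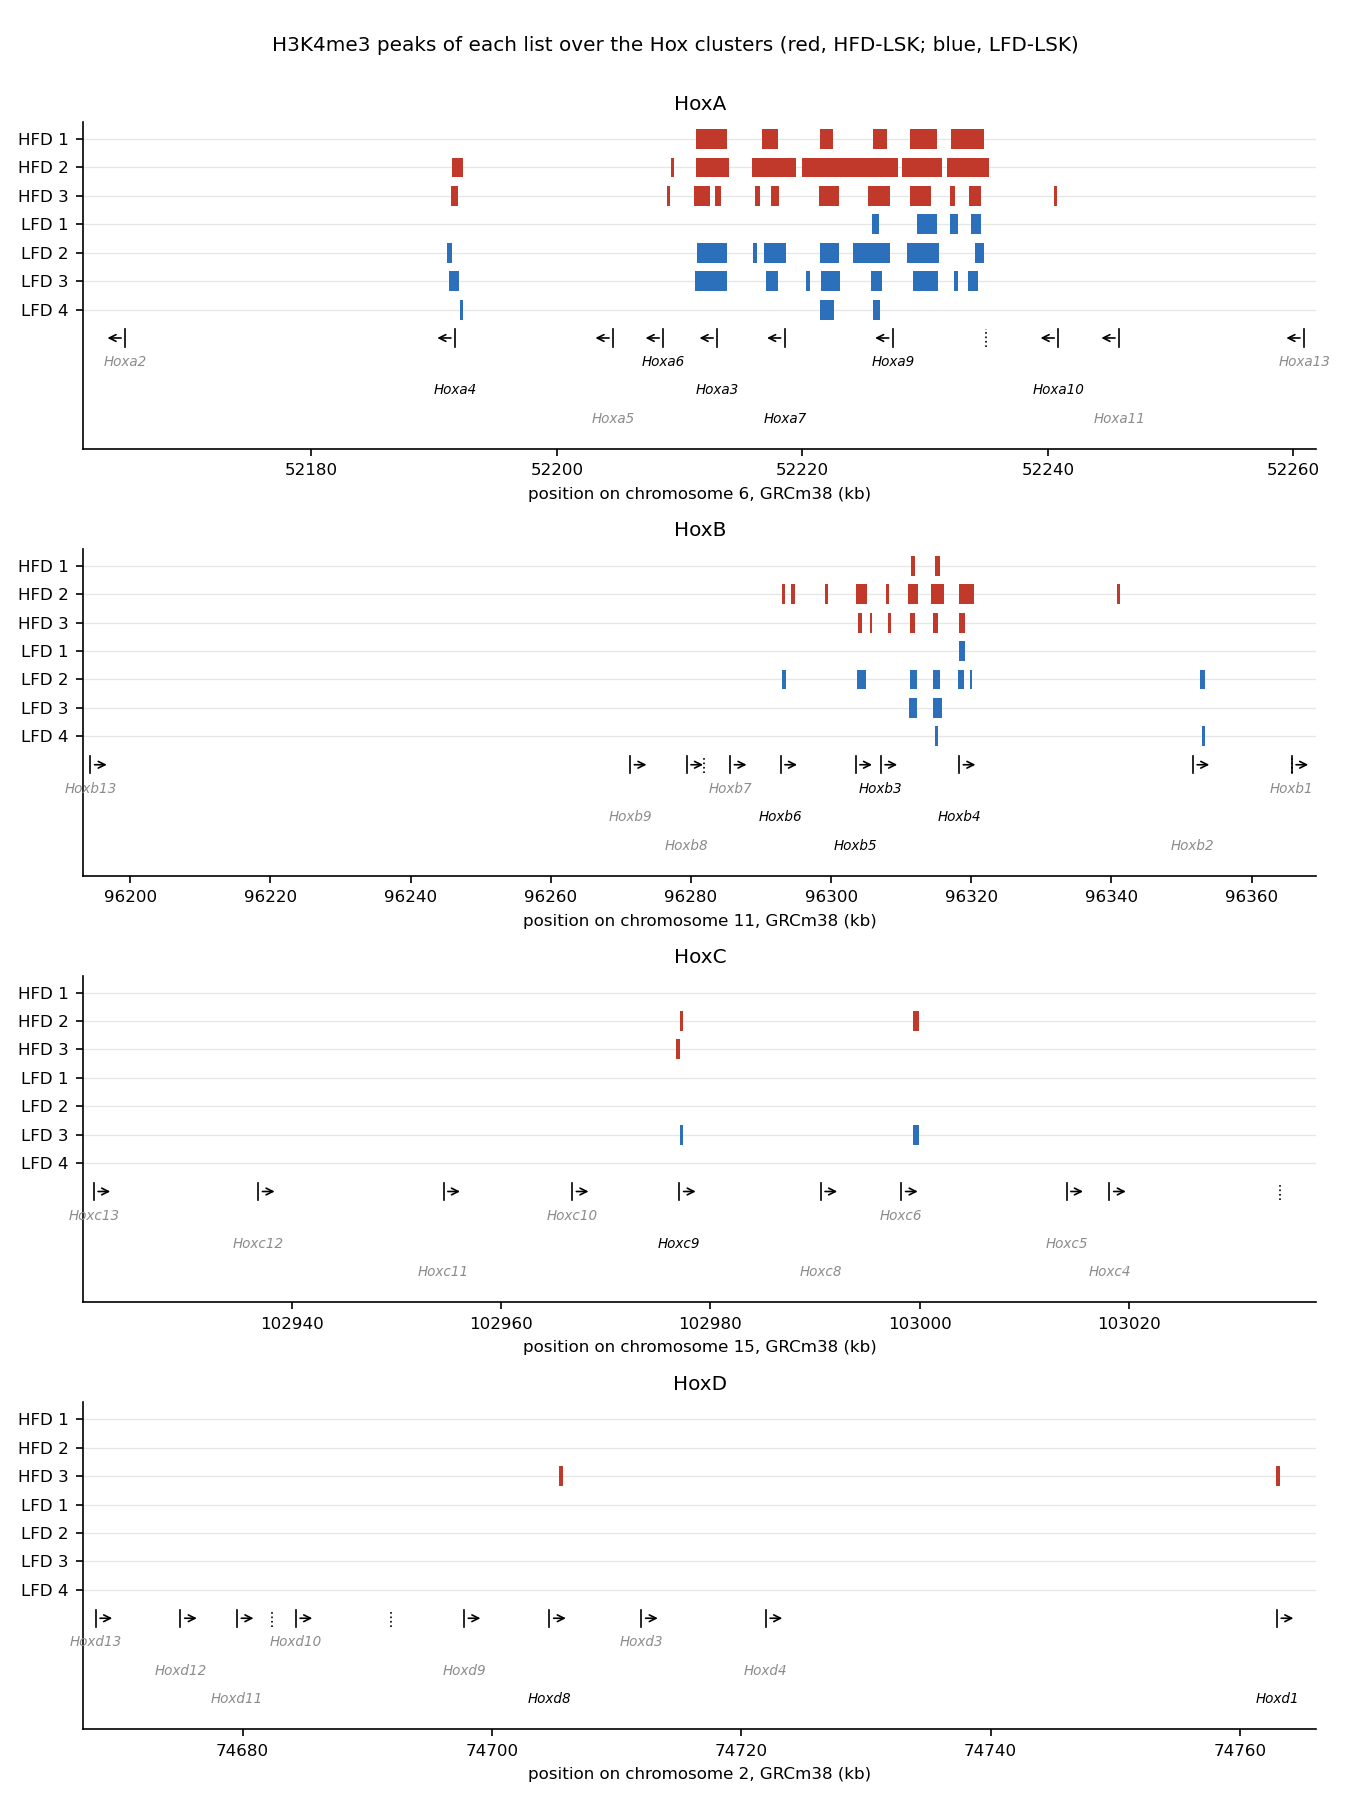
Maps of the 4 Hox clusters (x axis, position in kb on GRCm38; HoxA from Hoxa2 on) with the H3K4me3 peaks of each of the 7 lists as boxes (red, HFD-LSK; blue, LFD-LSK) and the annotated gene starts as arrows in the direction of transcription, a dotted tick for another annotated start and grey names for genes called in no list. Peaks gather between 52191065 and 52235240 on chromosome 6 in HoxA, are fewer in HoxB, and number 5 in HoxC and 2 in HoxD over all lists.

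Calls per list followed the length of the list. Hox starts were called 4, 12 and 11 times in HFD replicates 1 to 3 and 2, 8, 7 and 1 times in LFD replicates 1 to 4, with a mean of 9 ± 4.36 (SD, n = 3) against 4.5 ± 3.51 (SD, n = 4). The ranges overlapped, and the difference of 4.5 was slightly above the SD within either diet. Ordered by Hox starts the 7 lists fell in the same order as by all coding starts, of which 9002, 11251 and 9913 were called in the HFD lists and 7590, 9808, 9421 and 6678 in the LFD lists. The difference was 7 without HFD replicate 1, which had the fewest Hox calls of its diet, and 1.5 without LFD replicates 1 and 4. In lists of 6921 peaks each, HFD lists had 4, 4 and 5 Hox starts and LFD lists 2, 4, 5 and 1, a mean of 4.33 ± 0.577 (SD, n = 3) against 3 ± 1.83 (SD, n = 4). Coding starts called in these shortened lists numbered 7267, 7304 and 6468 in HFD and 7189, 7184, 7095 and 6678 in LFD.

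**Figure D2:**
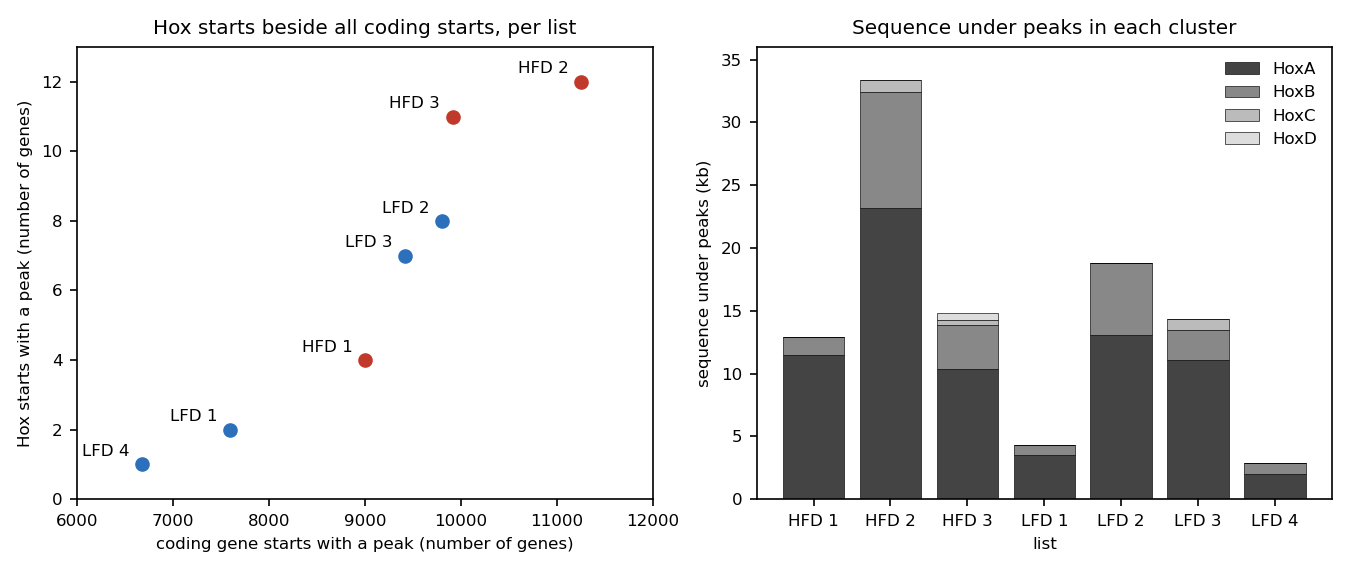
Left, Hox starts with a peak (y axis, number of genes) against all coding starts with a peak (x axis, number of genes) in each list, red for HFD-LSK and blue for LFD-LSK; right, kb of sequence under peaks in each cluster (stacked bars) per list. HFD replicate 2 had the most Hox starts (12) and LFD replicate 4 the fewest (1), and HoxA made up the largest part of each bar.

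No Hox start separated the diets. Among coding starts called in 1 to 6 lists, 34 of 6928 (0.491%) were called in all 3 HFD lists and no LFD list, and none of them was a Hox gene; no start showed the opposite pattern. In lists of equal length these counts were 23 and 22, and without HFD replicate 2 they were 35 and 24. The count of 34 was 327 without HFD replicate 1, 164 without LFD replicate 2 and 99 without LFD replicate 3. By two-sided Fisher's exact tests over these 6928 starts, no adjusted p-value (Benjamini-Hochberg) was below 0.05, 34 starts had an unadjusted p below 0.05, and the smallest p that 3 against 4 lists allow was 0.0286. The lowest p among Hox genes was 0.143 (exact test, adjusted p = 1) for Hoxa6, called in 2 of 3 HFD and 0 of 4 LFD lists. A larger share of HFD lists was seen for 13 of the 14 called Hox starts, with Hoxa4 the exception, beside 5763 of the 6928 coding starts (83.2%). In lists of equal length the larger share was in HFD for 5 Hox starts and in LFD for 2, and without LFD replicates 1 and 4 it was in HFD for 7 and in LFD for 3. The same counts over all coding starts are not given for these settings, so nothing particular to Hox genes is read from them.

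HoxA, on chromosome 6 (chr6:52154367-52261880 with 1 kb either side, all members on the minus strand), was the most marked cluster. Its peaks numbered 7, 9 and 12 in the HFD lists and 4, 9, 10 and 3 in the LFD lists. They covered 11470, 23214 and 10389 bp in HFD replicates 1 to 3 and 3517, 13097, 11082 and 1981 bp in LFD replicates 1 to 4. HFD replicate 2 stood highest and LFD replicates 1 and 4 lowest, while the other lists, from both diets, lay between 10389 and 13097 bp. Mean coverage was 15024 ± 7113 bp (SD, n = 3) in HFD and 7419 ± 5491 bp (SD, n = 4) in LFD, a difference of 7605 bp that fell to 3510 bp without HFD replicate 2 and to 2935 bp without LFD replicates 1 and 4. Per Mb covered by the whole list, HoxA took 1287, 1330 and 1005 bp in the HFD lists and 566, 1159, 1161 and 473 bp in the LFD lists.

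Overlapping peaks of the 7 lists were merged into 14659 regions, of which 26 lay in the Hox clusters: 11 in HoxA, 11 in HoxB, 2 in HoxC and 2 in HoxD. Regions called in a single list made up 10 of the 26 (38.5%) against 19.0% of all regions; 5 came from HFD replicate 2, 5 from HFD replicate 3 and none from an LFD list. A run of 8 HoxA regions reached from 52191065 to 52235240, a stretch of 44176 bp from the Hoxa4 start to the Hoxa10 start. They were not continuous: no list held a peak between 52192368 and 52208952, and Hoxa5, which lies there, had no peak within 1 kb of its start in any list. Beyond the last HoxA region, 21121 bp with Hoxa11 and Hoxa13 held no peak in any list. Those genes, which pattern limbs and the urogenital tract, were not called in any list.

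Only 1 Hox region, chr6:52219957-52227761 over the body of Hoxa9 and the sequence between it and Hoxa7, was called in all 7 lists, as were 4395 of the 14659 regions. It was 7805 bp long, with 3 longer regions in the genome and a median region of 1198 bp; it was singled out after its values were seen. Ordered by fold (the summit height over the local background, rank 1 the highest of its list), its strongest peak ranked 1240.5, 293.5 and 1699 in HFD replicates 1 to 3 and 3604, 2793.5, 1829 and 1310.5 in LFD replicates 1 to 4. HFD replicate 2 stood nearest the top and LFD replicate 1 farthest from it, and the ranks of the diets overlapped through LFD replicate 4. As percentiles of lists of unequal length the values were 13.5, 2.24 and 14.2 in the HFD lists and 48.4, 26.4, 17.7 and 18.9 in the LFD lists, each HFD list nearer the top than each LFD list. The strongest peak was not the same in every list: its summit lay at 52221850 or 52221852 in 5 lists and over Hoxa9, at 52226059 and 52226037, in LFD replicates 1 and 2. The mean rank was 1078 ± 717 (SD, n = 3) in HFD and 2384 ± 1019 (SD, n = 4) in LFD, a difference of −1307 (two-sided exact permutation p = 0.114, adjusted p = 0.822 over the 4395 regions). By percentile the means were 9.98 ± 6.71 (SD, n = 3) and 27.9 ± 14.2 (SD, n = 4), a difference of −17.9 (two-sided exact permutation p = 0.0857, adjusted p = 0.939). Both differences compare different peaks. Its peaks were 2167, 7805 and 3409 bp wide in the HFD lists and 517, 4560, 2867 and 1709 bp wide in the LFD lists. Widths also overlapped, with HFD replicate 2 the widest and LFD replicate 1 the narrowest. The difference in mean width was 2047 bp (4460 ± 2962 bp, n = 3, against 2413 ± 1723 bp, n = 4, two-sided exact permutation p = 0.314, adjusted p = 0.716). This width difference was 375 bp without HFD replicate 2 and 3194 bp without HFD replicate 1. It was 747 bp without LFD replicates 1 and 4, and 4540 bp with peaks within 500 bp of each other merged. Over all 4395 regions, 65 (1.48%) ranked nearer the top in every HFD list than in any LFD list and 184 farther from it, and 296 (6.73%) were wider in every HFD list and none narrower; the Hox region was in none of these sets. By percentile 162 regions (3.69%), the Hox region among them, were nearer the top in every HFD list and 66 farther from it. No adjusted p-value was below 0.05 for rank, percentile or width by these exact permutation tests, with 164, 112 and 157 unadjusted p-values below 0.05.

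Most summits of the region lay at 2 places, between Hoxa7 and Hoxa9 and over Hoxa9, which a single peak spanned in HFD replicate 2. LFD replicate 3 had a further weak peak, chr6:52220253-52220610, with its summit 1944 bp upstream of the Hoxa7 start (rank 9785.5, percentile 94.5). At the first, in HFD replicates 1, 2 and 3 and LFD replicate 3, a peak had its summit at position 52221850, and in LFD replicate 4 at 52221852, 3277 and 3279 bp upstream of the RefSeq start of Hoxa7 (52218573). LFD replicate 2 had a summit at 52222374, and LFD replicate 1 had no peak there. Ranks there were 1240.5, 293.5 and 1699 in the HFD lists and 5106.5, 1829 and 1310.5 in LFD replicates 2 to 4. The peaks over Hoxa9, with summits between 52225916 and 52226275, ranked 4010.5 and 5407.5 in HFD replicates 1 and 3 and 3604, 2793.5, 5290 and 2514.5 in LFD replicates 1 to 4. The ranks of the diets overlapped at both positions. As percentiles those at the first were 13.5, 2.24 and 14.2 in the HFD lists and 48.3, 17.7 and 18.9 in LFD replicates 2 to 4, with no overlap among the lists that had a peak there. This position was picked after its values were seen, and the separation was not tested. The share of all regions called in as many lists that separate this way is not given. Over Hoxa9 the percentiles were 43.7 and 45.1 in HFD replicates 1 and 3 and 48.4, 26.4, 51.1 and 36.3 in LFD replicates 1 to 4, and overlapped. GENCODE lists a protein-coding Hoxa7 transcript that starts 3281 bp upstream of the RefSeq start, by an exact match of the promoter sequence in GRCm39. Which transcript was used in these cells was not tested.

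Hoxa9 and Hoxa10, both known for driving self-renewal of progenitors when overexpressed, were among the members called most often; the members given list by list here were chosen after their values were seen. Hoxa9 (chr6:52223097-52227370) was called in 3 of 3 HFD lists, where its strongest peak ranked 4010.5, 293.5 and 5407.5, and in LFD replicates 2 and 3, at ranks 2793.5 and 5290. Peaks within 1 kb of its start were 1089, 11093 and 1790 bp wide in the HFD lists and 3004 and 897 bp wide in those LFD lists. The diets overlapped in rank and width, and HFD replicate 2 stood apart in both. Its width sums a peak of 7805 bp over the gene and the next peak upstream, of 3288 bp, and its rank is that of the first, whose summit lay at 52221850, beyond the other end of Hoxa9. With 3 kb either side of the start Hoxa9 was called in all 7 lists, and so was Hoxb4.

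Hoxa10 (chr6:52231197-52240854) was the member called in the most lists, 6. Its ranks were 4465, 3431.5 and 4713 in HFD replicates 1 to 3 and 5446, 8377.5 and 5290 in LFD replicates 1 to 3, and LFD replicate 4 had no call. At its downstream start (52234939), where all 6 calls lay, its peaks were 2743, 3463 and 991 bp wide in the HFD lists and 761, 709 and 760 bp wide in those LFD lists. In the lists that had a call, each HFD value was thus nearer the top and wider than each LFD value. Ranks and widths were tested only for starts called in all 7 lists, so this difference was not tested. The share of starts called in 6 lists that separate this way is not given. Among the 4778 coding starts called in all 7 lists, 327 were wider in every HFD list than in any LFD list and none narrower. By rank 66 of these starts were nearer the top in every HFD list and 204 farther from it. The upstream start (52240854) had a further peak, of 279 bp, within 1 kb in HFD replicate 3 alone.

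Of the other HoxA members, Hoxa3 and Hoxa7 were each called in 3 HFD and 2 LFD lists, Hoxa4 in 2 and 3, and Hoxa6 in 2 and 0. Hoxa3 had single broad peaks of 2563 and 2668 bp in HFD replicates 1 and 2 and of 2395 and 2620 bp in LFD replicates 2 and 3, and a pair of peaks of 1265 and 448 bp in HFD replicate 3. Hoxa3 ranked 4351, 6932 and 6559.5 in HFD replicates 1 to 3 and 3077.5 and 3701 in LFD replicates 2 and 3. Both LFD values were nearer the top than each HFD value, opposite to Hoxa10 and Hoxb4. The difference was not tested. The annotated start of Hoxa3 (52213067) lies between Hoxa6 and Hoxa7 because the gene model spans Hoxa4 to Hoxa6. Hoxa4 peaks were weak where called, between the 75.2 and 85.9 percentiles of their lists. Hoxa2, Hoxa5, Hoxa11 and Hoxa13 were called in no list.

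HoxB, on chromosome 11 (chr11:96193316-96369254, plus strand), had fewer and narrower peaks. They numbered 2, 9 and 6 in the HFD lists and 1, 7, 2 and 2 in the LFD lists, over 1427, 9241 and 3484 bp and 817, 5666, 2362 and 883 bp. The values of both diets overlapped, with HFD replicate 2 and LFD replicate 2 the highest of each. Hoxb4 (chr11:96318267-96321638), a gene known for expanding stem cells, was called in 4 lists, at ranks 2473.5 and 1254.5 in HFD replicates 2 and 3 and 6192 and 5206.5 in LFD replicates 1 and 2. Its peaks were 2223 and 964 bp wide in those HFD lists and 817 and 831 bp wide in those LFD lists. Both HFD values were nearer the top than both LFD values, but HFD replicate 1 had no call, and the difference was not tested. Fewer values make such separation easier by construction, and its share over all coding starts is not given.

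The most often called HoxB regions lay away from coding starts, inside the long gene model of Hoxb3; they were singled out after their values were seen. The region chr11:96314229-96316079 was called in 6 lists, all but LFD replicate 1, and chr11:96311016-96312333 in 5, 3 of HFD and 2 of LFD. Hoxb5 was called in 3 lists, Hoxb6 in 2 and Hoxb3 at its annotated start in 1, HFD replicate 2. Hoxb1, Hoxb2, Hoxb7, Hoxb8, Hoxb9 and Hoxb13 were called in none. The single Hox region seen only in LFD lists, chr11:96352685-96353412 in the body of Hoxb2 and at the start of the antisense RNA Hoxb3os, was called in LFD replicates 2 and 4. Regions seen only in HFD lists numbered 11 of the 26 Hox regions (42.3%) against 3054 of all 14659 (20.8%), and those seen only in LFD lists 1 (3.85%) against 378 (2.58%).

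HoxC and HoxD were nearly bare. In HoxC (chr15:102920131-103037856, plus strand) only Hoxc9 was called, in HFD replicates 2 and 3 and LFD replicate 3, with peaks of 320, 381 and 354 bp among the weakest of their lists (percentiles 99.0, 85.6 and 98.5). HoxC coverage was 0, 919 and 381 bp in the HFD lists and 0, 0, 933 and 0 bp in the LFD lists, a mean difference of 200.1 bp that was −42.8 bp without HFD replicate 2. In HoxD (chr2:74667225-74766142, plus strand) Hoxd1 and Hoxd8 were called in HFD replicate 3 alone, by peaks of 271 and 313 bp, and no LFD list held a HoxD peak. HFD replicate 3 was also the list in which a summit of 4 fragments was enough for a call.

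Called Hox starts lay farther from the top of their list than the typical called gene in all 7 lists. The median Hox percentile was 48.0, 76.1 and 64.7 in HFD replicates 1 to 3 and 78.1, 63.6, 51.1 and 79.0 in LFD replicates 1 to 4. Over all called coding starts the medians were 43.7, 39.6 and 42.8 in the HFD lists and 44.7, 42.3, 41.9 and 43.4 in the LFD lists. The Hox medians of the diets overlapped, and those of LFD replicates 1 and 4 rested on 2 genes and 1 gene. Median Hox widths were 1929, 1268.5 and 609 bp in the HFD lists and 789, 1071.5, 803 and 272 bp in the LFD lists, against 942.5, 1372 and 908 bp and 794, 1071, 920 and 583 bp over all called coding starts. Hox genes were thus wider than the coding median in HFD replicate 1 and nearly equal to it in LFD replicates 1 and 2. They were narrower in HFD replicates 2 and 3 and LFD replicates 3 and 4. At Hox peaks the median summit held 40, 20 and 12 fragments in the HFD lists and 38, 22.5, 17 and 15 in the LFD lists. No peak in the clusters reached the starts of more than 1 member, so each of the 48 peaks at a start counted for 1 gene; the other 42 of the 90 peaks lay away from the member starts.

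The CpG content of the promoters did not order the Hox members by their calls. RefSeq promoters (GRCm38.p6, 250 bases before to 50 after the start) were at hand as 24 entries for 22 Hox genes, with a median of 14.5 CpG dinucleotides against 13 over all 21263 coding entries, 24 over coding entries called in all lists and 4 over those called in none. Hox entries with a peak within 1 kb in at least 3 lists had a median of 14 CpG (n = 5), those with a peak in 1 or 2 lists 19 (n = 4), and those with none 15 (n = 15). Hoxa13, called in no list, had the most (45), and Hoxa9, called in 5, was among those with the fewest (4). A set of 3 letter patterns was also looked up on both strands. TGATTNAT, a Hox and Pbx recognition pattern, was in 2 Hox entries (8.33%) against 2.75% of all coding entries, TATAAA in 4 (16.7%) against 12.6%, and CCAAT in 15 (62.5%) against 38.2%. By calls, CCAAT was in 1 of 5 entries with a peak in at least 3 lists (20%), 3 of 4 with a peak in 1 or 2 (75%) and 11 of 15 with none (73.3%). TGATTNAT was in 0, 0 and 2 of these (13.3% of those with none) and TATAAA in 1, 0 and 3; no difference between these few entries was tested.

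The promoters of Hoxa9 and Hoxa10, called in 5 and 6 lists, of Hoxb4, called in 4, and of Hoxa13, uncalled, are printed as examples. Hoxa3, also called in 5 lists, had 20 CpG and is not printed. Of the printed promoters, Hoxa9 lay at the low end of the CpG range, Hoxa13 at the high end, and Hoxb4 and Hoxa10 between. Each is a RefSeq sequence of GRCm38.p6 written 5′ to 3′ on the strand of the gene, with CpG dinucleotides in capitals. Hoxa9 is chr6:52227321-52227620 (minus strand; 4 CpG; a peak overlapped these bases in 1 list), Hoxa10 is chr6:52234890-52235189 (minus strand; 21 CpG; a peak overlapped them in 1 list), Hoxb4 is chr11:96318017-96318316 (plus strand; 14 CpG; 4 lists) and Hoxa13 is chr6:52260831-52261130 (minus strand; 45 CpG; 0 lists).
Hoxa9: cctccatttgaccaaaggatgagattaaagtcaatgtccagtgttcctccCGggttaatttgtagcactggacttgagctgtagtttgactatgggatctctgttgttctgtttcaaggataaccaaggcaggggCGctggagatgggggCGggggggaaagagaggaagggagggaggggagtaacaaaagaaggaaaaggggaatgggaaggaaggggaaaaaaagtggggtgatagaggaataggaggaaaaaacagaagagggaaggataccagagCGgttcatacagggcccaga
Hoxa10: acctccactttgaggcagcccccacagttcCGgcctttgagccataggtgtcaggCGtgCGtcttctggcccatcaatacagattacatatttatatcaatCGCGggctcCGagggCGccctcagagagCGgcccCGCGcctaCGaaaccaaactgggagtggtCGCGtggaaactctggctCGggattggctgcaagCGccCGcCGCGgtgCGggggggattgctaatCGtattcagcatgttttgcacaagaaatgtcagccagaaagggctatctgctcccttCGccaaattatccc
Hoxb4: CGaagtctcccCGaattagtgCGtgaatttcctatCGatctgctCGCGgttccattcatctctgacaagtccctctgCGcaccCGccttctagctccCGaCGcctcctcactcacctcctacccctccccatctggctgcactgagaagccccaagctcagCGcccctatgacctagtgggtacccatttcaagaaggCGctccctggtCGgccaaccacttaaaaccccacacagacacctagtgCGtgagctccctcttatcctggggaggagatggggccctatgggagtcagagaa
Hoxa13: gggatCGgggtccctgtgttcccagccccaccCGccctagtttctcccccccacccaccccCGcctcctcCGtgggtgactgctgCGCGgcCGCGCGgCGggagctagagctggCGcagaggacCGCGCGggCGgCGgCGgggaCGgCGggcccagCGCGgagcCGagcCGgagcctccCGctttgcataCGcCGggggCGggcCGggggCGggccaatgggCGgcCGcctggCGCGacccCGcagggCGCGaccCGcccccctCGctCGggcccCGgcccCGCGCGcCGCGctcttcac

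The clusters also hold microRNA genes, of which the miR-196 and miR-10 families are known to target Hox transcripts. The hairpin of Mir196b (chr6:52230081-52230165, minus strand), between Hoxa9 and Hoxa10, lay under a peak in 3 HFD and 3 LFD lists, and in LFD replicate 4 the nearest peak was 3771 bp away. No list had a peak over Mir10a (chr11:96317165-96317274), next to Hoxb4, where the nearest peak was 857 to 1889 bp away, or over Mir10b, Mir196a-1, Mir196a-2 or Mir615. The mature 5p sequences are printed from RefSeq (GRCm38.p6) because Mir196b, under a peak in most lists, shares its seed with the Mir196a genes, which had no peak. Capitals mark the seed (bases 2 to 8), AGGUAGU for the miR-196 pair and ACCCUGU for the miR-10 pair.
miR-196b-5p: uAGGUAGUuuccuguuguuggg
miR-196a-5p: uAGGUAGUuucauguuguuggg
miR-10a-5p: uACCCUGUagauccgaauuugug
miR-10b-5p: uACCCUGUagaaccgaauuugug

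Of a chosen list of 15 noncoding genes of the clusters with a start, 6 were called in at least 1 list and none in all 7. The list was not complete. Gm52902, Mira and Gm38462, which it does not hold, also had starts at called regions, Gm52902 at the region called in all 7 lists. A share over all noncoding starts is not given here. Mir196b was called in 6 lists, at a region near the Hoxa9 start, and was picked out after its values were seen. Hottip, Hotair and Hoxa11os were called in none.

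Lists of genes that act with or on the Hox genes are given beside all coding starts, of which 54.6% were called in at least 1 list and 22.3% in all 7. All 11 TALE cofactor genes were called in at least 1 list and 4 in all 7, with mean percentiles of 22.0 for Meis1, the partner of Hoxa9 in progenitors, 30.9 for Tgif1, 46.7 for Pbx3 and 62.6 for Pbx2. Among 15 activators of Hox genes 11 were called and 7 in all lists, with Mllt10 at 2.28, the methyltransferase gene Kmt2a at 7.51 and Psip1 at 12.4. The 4 activators called in none, Cdx1, Cdx2, Cdx4 and Ash2l, are named after their values were seen. All 18 Polycomb genes were called and 13 in all lists, led by Jarid2 at 8.21, Rnf2 and Eed at 19.1 each and Phc3 at 23.8. No gene of these 3 lists had a permutation p for rank below 0.05 between the diets. For width only the Polycomb gene Cbx6 had one (two-sided exact permutation p = 0.0286, the smallest possible, adjusted p = 0.706), and it is named for that value. Its HFD peaks were wider by a mean of 513 bp, with each HFD list above each LFD list. Among all 4778 coding starts called in every list, 180 had such a p for rank and 183 for width. Of the same starts, 327 were wider in every HFD list than in any LFD list and none was narrower.

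Just outside the clusters, 9 of 13 neighbouring genes were called and 4 in all lists. Skap2, beside HoxA, had a mean percentile of 20.5, and Cbx5 and Hnrnpa1, beside HoxC, shared a peak at 31.1; Hibadh, beyond the other end of HoxA, had 54.2. The homeobox genes Evx1 and Evx2 at the ends of HoxA and HoxD were called in none, as were 2 of the other neighbours. The ParaHox genes Gsx1, Gsx2 and Pdx1, relatives of the Hox genes outside the clusters, were not called in any list.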

How the data were processed

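The deposited peak lists of the 7 H3K4me3 libraries were used as the authors made them. The submitters' notes name Trim Galore, Bowtie2, Picard and MACS2 with build GRCm38 and give no versions; the study's methods name SEACR and GRCm39, but the deposited lists have the MACS2 layout and GRCm38 coordinates. In the deposited lists the score is 10 times the −log10 p-value, the fold is the ratio of the summit to the local background of the same library, and the remaining columns are the −log10 p-value and −log10 q-value of the summit. The lowest −log10 p-value was 5.01. Fragments at each summit were estimated from fold and p-value with a tolerance of 0.004.

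A start was called when a peak reached within 1 kb of the first base of the gene model or of a RefSeq promoter entry. The strand of 22 Hox genes came from the promoter entries and that of 17 from GENCODE by symbol. Width is the summed length of the peaks at a start or in a region, and rank is that of the strongest of them by fold, ties averaged. Clusters run from 1 kb before the first to 1 kb after the last member. Calls were compared by two-sided Fisher's exact tests, and rank and width of starts or merged regions called in all 7 lists by two-sided exact permutation tests over the 35 arrangements of the lists, each adjusted over all features (Benjamini-Hochberg). The script was tested on simulated data. Python 3.11.15, numpy 2.4.6, scipy 1.17.1, pandas 2.3.3 and matplotlib 3.10.9 were used.

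The members and lists were chosen with earlier results of these data known. Values in every list were to be given for members called in all 7 lists, or in 3 of 3 lists of a diet and at most 1 of the other; no member met either condition at 1 kb, or had a rank or width to test, so those given list by list were picked after their values were seen. Of each fixed gene list up to 6 genes were named, those called in all 7 lists with the best mean rank first, then those called in none; Twist1, Cbx6, Mir196b and the activators called in none were named outside this rule, after their values were seen. Alternatives were a −log10 q-value of at least 5, lists of equal length, windows of 3 kb and 500 bp, other measures of rank and width, leaving out each list and pairing replicates by number. Results for some genes are not reported here.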

Additional observations from a re-analysis of the deposited data

Results flagged for a closer look

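Of 48 sets of 4 LFD values looked at, 4 had a list far from the others, judged by its gap to the nearest value over the whole range. Chance alone gives about 1 in 20 for independent values of normal spread, which these sets are not. LFD replicate 2 had 7 HoxB peaks, against a median of 2 in the other LFD lists. LFD replicate 3 had 2 HoxC peaks covering 933 bp, against 0 in the other LFD lists. These same peaks gave 2 of the flags, and with 0 in the other lists the gap equals the range by construction. At Phc1, a Polycomb gene, the strongest peak lay at percentile 76.0 in LFD replicate 2, against a median of 40.2 in the other LFD lists and 42.1, 18.9 and 39.4 in the HFD lists.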

How the results depend on the processing

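Of 214 recomputed values 147 were counted as unchanged, 65 moved further and 2 changed sign. Unchanged meant within the spread between lists, or within 1.5 times for a count. For rank and width of the HoxA region it meant the same sign with no permutation p below 0.05. For coverage per Mb it meant the same sign alone. The HoxA region width with peaks merged (4540 bp, main value 2047 bp, SD 2300 bp) was thus counted as unchanged. The difference in Hox starts per list (4.5) kept its sign under every alternative, 3 to 7 when leaving out a list, 1.33 in lists of equal length and 1.5 without the 2 shortest lists; so did HoxA coverage (7605 bp; 3510 to 9923 bp when leaving out a list, 2935 bp without the 2 shortest). HoxC coverage (200.1 bp) ran from −42.8 bp without HFD replicate 2 to 433 bp without LFD replicate 3, and was −33.2 bp without the 2 shortest lists.

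Equal lists lowered the Hox starts called in any list from 14 to 7 and coding starts from 11706 to 10187, by construction, as weaker peaks were left out. Coding starts called in every HFD and no LFD list (34, against 0 the other way) numbered 23 in equal lists (22 the other way), 70 at a −log10 q-value of at least 5, 66 without the 2 shortest lists and 35 to 327 when leaving out a list. Coding starts nearer the top in every HFD list (66) numbered 26 at that q-value, 41 in equal lists, 160 by percentile, 580 without the 2 shortest lists and 114 to 300 when leaving out a list; those farther from the top (204) numbered 60 in equal lists, 74 by percentile and 749 without the 2 shortest lists, so the balance turned by percentile. Coding starts wider in every HFD list (327) numbered 187, 128 in equal lists, 139 over the median width of the list (with 92 narrower, against 0 in bp), 604 without the 2 shortest lists (128 narrower) and 329 to 1063 when leaving out a list (69 narrower without HFD replicate 2). Fewer lists make such separation easier by construction; otherwise the cause was not tested.

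Replicates paired by number (a replicate block) gave 3.33 Hox starts per list, 5792 bp of HoxA coverage, 576 coding starts nearer the top and 1078 farther, and 2089 wider and 109 narrower, as values with no test. Numbers showed no clear pairing. The correlation across 4778 coding genes of the rank deviations was 0.0999, −0.0192 and 0.0277 for pairs 1 to 3. For HFD and LFD lists of unlike number it ran from −0.145 to 0.0905. Pair 1 lay just above this range and pairs 2 and 3 within it. Genes are not independent replicates, and whether libraries were paired was not tested.

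Leaving out the 2 shortest lists, the gene model start alone, coverage per Mb and the merged regions were chosen after seeing the data. Lists hold no value below the p limit, so a start with no call is not shown to lack the mark at that depth.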
